A study of Mus musculus with 7 samples.

Results

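Setd1a, Usp22 and Med24 encode cofactors of transcription. The cytosines described here are 20 sites in 3 windows inside these genes, 9 in Setd1a, 4 in Usp22 and 7 in Med24, out of 18189 sites listed for the Uhrf1 rescue experiment. The same 20 sites are among the 21989 listed for the Mof knockdown experiment, with identical wild-type reads. The windows span 200 bases each and were taken by position in mouse build mm10, around 127785010 to 127785135 on chromosome 7 (Setd1a) and around 61168587 to 61168641 (Usp22) and 98708730 to 98708812 (Med24) on chromosome 11. They were chosen by measured values of these libraries, high methylation in wild-type cells and low methylation in Uhrf1-/- cells, so that contrast is given as a description with no test.

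Methylation was measured by reduced representation bisulfite sequencing (RRBS), in which restriction enzymes enrich CpG-rich fragments and bisulfite converts unmethylated cytosines, in 7 libraries of J1 mouse embryonic stem cells grown on gelatin in serum with leukemia inhibitory factor. The groups, as labelled, were wild type (2 libraries), Uhrf1-/- (2 libraries), Uhrf1-/- with wild-type human UHRF1 (called the WT rescue, 1 library), Uhrf1-/- with human UHRF1 carrying K667R, K668R and K670R (3KR rescue, 1 library) and a stable Mof knockdown (1 library). Both rescues came from flag-myc-tagged plasmids transfected into the knockout, with hygromycin selection and picking of single colonies, so the clone and the transgene cannot be told apart. The WT rescue column was assigned from its name, whose ending the labels do not explain, and all values of that rescue rest on this. By its title the series is about acetylated UHRF1, its acetyltransferase MOF and the maintenance of DNA methylation. Whether the paired libraries are separate cultures is not stated, so their spread may be technical.

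UHRF1 binds DNA that is methylated on 1 strand after replication and brings in DNMT1, which copies the methyl mark to the new strand. MOF transfers acetyl groups to lysines of histones and other proteins. SETD1A is a catalytic subunit of a SET1/COMPASS complex, which methylates histone H3 at active promoters. USP22 is the deubiquitinase of the SAGA coactivator, which removes ubiquitin from histone H2B. MED24 is a subunit of Mediator, the complex that links transcription factors to RNA polymerase II. Methylation within the body of a gene is common in transcribed genes, and these data hold no measure of transcription.

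None of the windows is at the main start of its gene. The Setd1a sites (127785010 to 127785135, all on the minus strand) lay 7621 to 7746 bases from the RefSeq start of the gene at 127777389 and are annotated as exonic by the authors. The Usp22 sites (61168587 to 61168641, minus strand) are annotated as intronic and lay 6418 to 6472 bases from the upper end of the gene at 61175059. The Med24 sites (98708730 to 98708812, plus strand) are also annotated as intronic and lay 4133 to 4215 bases from the lower end of the gene at 98704597. They lay 20607 to 20689 bases from the upper end at 98729419, the start side for the annotated transcript, which is on the minus strand. All 20 sites carry the promoter label because a further transcript start lies nearby, at 473 to 598 bases in Setd1a, 313 to 367 in Usp22 and 728 to 810 in Med24. None lies in a CpG island or shore. No listed site of the rescue experiment lay within 1000 bases of either RefSeq end of the 3 genes, so their main starts were not measured here.

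Median depth over all sites was 10 to 22 reads per library. Read counts summed over the listed sites were 257860 to 668870 per library in the rescue experiment and 299507 in the Mof knockdown. A read that covers several sites counts at each of them. The windows held 5 to 119 reads per site and library. Several neighboring sites had nearly the same depth, as sites that share reads do: every Med24 site had 14 reads in Uhrf1-/- library 1 and 18 in library 2. Depth was lower at the last 2 Setd1a sites and the last Usp22 site than at their neighbors. In each library, 49.4% to 63.7% of sites with both kinds of read listed an even number of each, where odd and even numbers that were equally frequent would give 25%. Over the sites and libraries of the windows with both kinds of read, both numbers were even in 32 of 39 values in Med24, 28 of 57 in Setd1a and 10 of 20 in Usp22. Whether overlapping mates of a read pair were counted as 2 reads was not tested. If they were, the read numbers overstate the molecules, and the intervals are too narrow and the p-values too small. Binomial intervals and Fisher's tests below take the reads as independent and cover counting error only, and neighboring sites may not be independent measurements. Intervals on the pooled reads of a window count a read at each site it covers, so they are too narrow where sites share reads. They belong to the pooled percentage, not to the unweighted mean printed beside them.

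The Setd1a window was heavily methylated in wild type, nearly as high in the WT rescue and the Mof knockdown, and low in both Uhrf1-/- libraries and the 3KR rescue. The reads follow site by site as methylated of total. At position 127785010 the wild-type libraries had 36 of 44 and 62 of 82, the Uhrf1-/- libraries 0 of 21 and 0 of 14, the WT rescue 87 of 116, the 3KR rescue 10 of 44 and the Mof knockdown 22 of 24. Position 127785016 had 42 of 44 and 78 of 82 in wild type, 1 of 21 and 0 of 12 in Uhrf1-/-, 84 of 117 in the WT rescue, 6 of 40 in the 3KR rescue and 18 of 24 in the Mof knockdown. This site had the lowest level of the window in both rescues, at 71.8% in the WT rescue and 15.0% in the 3KR rescue. At 127785028 the numbers were 38 of 43 and 78 of 82 in wild type, 3 of 21 and 2 of 13 in Uhrf1-/-, 99 of 119 in the WT rescue, 15 of 43 in the 3KR rescue and 20 of 24 in the Mof knockdown. Only 3 bases away, 127785031 had 41 of 43 and 74 of 82 in wild type, 0 of 21 and 0 of 14 in Uhrf1-/-, 94 of 118 in the WT rescue, 8 of 43 in the 3KR rescue and 12 of 24 in the Mof knockdown. Here the Mof knockdown library stood at 50%, its lowest value in the window, below wild-type values of 95.3% and 90.2%.

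The middle Setd1a site was the most methylated of the window in the 3KR rescue. At 127785057 the wild-type libraries had 38 of 44 and 68 of 82, the Uhrf1-/- libraries 3 of 21 and 4 of 14, the WT rescue 109 of 117, the 3KR rescue 25 of 41 and the Mof knockdown 22 of 24. The 3KR value of 61.0% compares with 15.0% to 36.4% at the other 8 sites. At 127785102 wild type had 33 of 42 and 53 of 78, Uhrf1-/- 3 of 21 and 4 of 13, the WT rescue 87 of 113, the 3KR rescue 7 of 41 and the Mof knockdown 18 of 24. The 3KR rescue lay between the Uhrf1-/- libraries at this 1 of the 9 sites and above both at the other 8. Position 127785111 had 40 of 42 and 68 of 78 in wild type, 4 of 19 and 2 of 13 in Uhrf1-/-, 84 of 114 in the WT rescue, 9 of 41 in the 3KR rescue and 20 of 24 in the Mof knockdown. At the last pair of sites, which had fewer reads, the WT rescue and the Mof knockdown both lay between the wild-type libraries. At 127785132 the reads were 20 of 22 and 27 of 39 in wild type, 0 of 11 and 1 of 7 in Uhrf1-/-, 50 of 62 in the WT rescue, 6 of 22 in the 3KR rescue and 9 of 10 in the Mof knockdown. At 127785135 they were 20 of 22 and 26 of 41 in wild type, 3 of 11 and 2 of 6 in Uhrf1-/-, 51 of 60 in the WT rescue, 8 of 22 in the 3KR rescue and 9 of 11 in the Mof knockdown. The wild-type libraries themselves lay 21.7 and 27.5 points apart at these sites, the widest gaps of the window.

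The Usp22 window had the lowest mean of the 3 in each of the 7 libraries, and it was the window where the Mof knockdown library was low. At 61168587 the wild-type libraries had 12 of 16 and 24 of 30 reads methylated, the Uhrf1-/- libraries 0 of 11 and 0 of 22, the WT rescue 55 of 67, the 3KR rescue 0 of 34 and the Mof knockdown 4 of 12. The 3KR rescue thus had no methylated read at this site, which allows a level of up to 8.82%, while the WT rescue was at 82.1%. Position 61168604, 17 bases on, had 14 of 14 and 23 of 31 in wild type, 0 of 12 and 4 of 25 in Uhrf1-/-, 43 of 65 in the WT rescue, 12 of 34 in the 3KR rescue and 10 of 12 in the Mof knockdown. It was the site of the window with the highest level in the 3KR rescue, 35.3%, and in the Mof knockdown, 83.3%. At 61168629 wild type had 11 of 15 and 18 of 29, Uhrf1-/- 0 of 12 and 4 of 26, the WT rescue 42 of 64, the 3KR rescue 8 of 32 and the Mof knockdown 2 of 12. The shallowest site, 61168641, had 5 of 8 and 13 of 16 in wild type, 0 of 5 and 0 of 15 in Uhrf1-/-, 20 of 34 in the WT rescue, 1 of 17 in the 3KR rescue and 1 of 7 in the Mof knockdown. Uhrf1-/- library 1 had no methylated read at any of the 4 sites, over 5 to 12 reads each.

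In Med24 the WT rescue was fully methylated at 4 of 7 sites and the 3KR rescue was more methylated than in the other windows. At 98708730 the wild-type libraries had 23 of 25 and 50 of 60, the Uhrf1-/- libraries 2 of 14 and 4 of 18, the WT rescue 34 of 48, the 3KR rescue 16 of 36 and the Mof knockdown 36 of 40. At 98708756 they had 24 of 26 and 62 of 62, then 6 of 14 and 4 of 18, with 48 of 48 in the WT rescue, 16 of 35 in the 3KR rescue and 38 of 40 in the Mof knockdown. Position 98708772 had 22 of 26 and 58 of 62 in wild type, 8 of 14 and 2 of 18 in Uhrf1-/-, 46 of 48 in the WT rescue, 23 of 35 in the 3KR rescue and 34 of 40 in the Mof knockdown. This was the site with the highest 3KR level of all 20, 65.7%, and the one where the Uhrf1-/- libraries differed most, 57.1% against 11.1%. At 98708784 wild type had 22 of 26 and 58 of 60, Uhrf1-/- 0 of 14 and 0 of 18, the WT rescue 46 of 46, the 3KR rescue 18 of 36 and the Mof knockdown 31 of 39. The 3KR library was thus at 50% where neither Uhrf1-/- library had a methylated read. At 98708790 the reads were 26 of 26 and 58 of 62 in wild type, 2 of 14 and 0 of 18 in Uhrf1-/-, 48 of 48 in the WT rescue, 20 of 36 in the 3KR rescue and 38 of 40 in the Mof knockdown. Position 98708810 had 20 of 24 and 50 of 54 in wild type, 2 of 14 and 4 of 18 in Uhrf1-/-, 44 of 44 in the WT rescue, 8 of 36 in the 3KR rescue and 26 of 36 in the Mof knockdown. The adjacent 98708812 had 15 of 25 and 49 of 59 in wild type, 0 of 14 and 2 of 18 in Uhrf1-/-, 35 of 45 in the WT rescue, 8 of 36 in the 3KR rescue and 26 of 40 in the Mof knockdown. These last sites had the lowest 3KR level of the window, 22.2% each.

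Just outside the Med24 window, 24 bases below its lower bound, 98708676 had 25 of 25 and 57 of 61 methylated reads in wild type, 1 of 7 and 5 of 9 in Uhrf1-/-, 40 of 45 in the WT rescue, 17 of 33 in the 3KR rescue and 29 of 38 in the Mof knockdown. The nearest site inside, 98708730, was 92% and 83.3% methylated in wild type and 14.3% and 22.2% in Uhrf1-/-. Elsewhere in Med24, the exonic site 98717220 was at 66.7% and 100% in wild type, 45.2% and 33.3% without Uhrf1, 91.7% in the WT rescue and 34.8% in the 3KR rescue. An intronic site at 98725087 was at 60% and 16.7% in wild type (5 and 12 reads), 0% in both Uhrf1-/- libraries, 4.17% in the WT rescue and 9.09% in the 3KR rescue. High wild-type methylation was therefore not seen at every listed site of Med24. Setd1a and Usp22 had no listed site outside their windows.

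**Figure D1:**
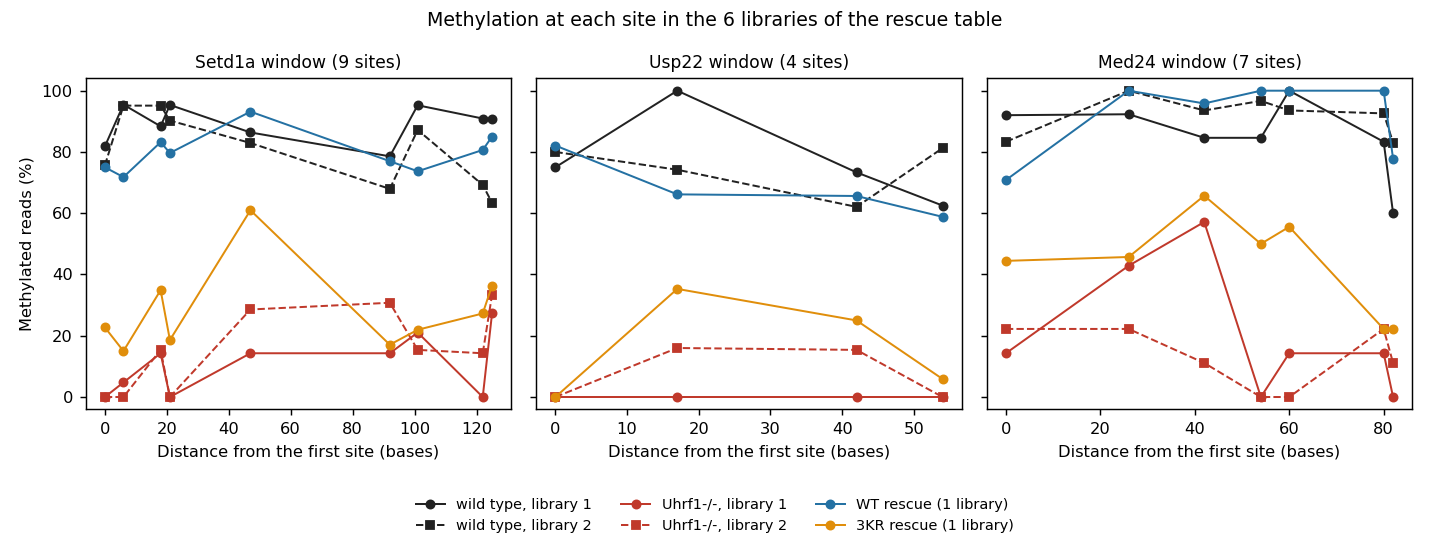
Percentage of methylated reads (vertical axis) at each site against its distance in bases from the first site of the window (horizontal axis), for the 6 libraries of the rescue experiment; lines join the sites of 1 library. Wild type and the WT rescue lie at 58.8% or above at all 20 sites, both Uhrf1-/- libraries at 57.1% or below, and the 3KR rescue mostly between them, with peaks of 61.0% in Setd1a and 65.7% in Med24.

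Averaged over sites without weights, wild type measured 85% ± 5.99 in Setd1a, 76.0% ± 2.35 in Usp22 and 88.5% ± 4.63 in Med24, and Uhrf1-/- measured 13.0% ± 3.28, 3.92% ± 5.55 and 16.6% ± 5.45 (SD, n = 2 each). The single libraries behind these means were 89.2% and 80.8% in wild type and 10.7% and 15.3% in Uhrf1-/- for Setd1a. For Usp22 they were 77.7% and 74.4%, and 0% and 7.85%. For Med24 they were 85.3% and 91.8%, and 20.4% and 12.7%. The windows had almost the same difference, -72.0 points in Setd1a, -72.1 in Usp22 and -72.0 in Med24. Both Uhrf1-/- libraries lay below both wild-type libraries at 20 of 20 sites, beside 59.3% of all listed sites. At least 10 reads in each of the 4 libraries were present at 17 of the 20 sites, and all 17 differed by at least 20 points, beside 54.6% of all sites with that depth. Since this contrast chose the windows, nothing is read from either count.

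The WT rescue brought all 3 windows near the wild-type level. It measured 79.9% in Setd1a (745 of 936 pooled reads, Wilson 95% interval 76.9% to 82.1%), 68.2% in Usp22 (160 of 230, 63.3% to 75.2%) and 92.1% in Med24 (301 of 327, 88.6% to 94.5%). Against the wild-type mean this was -5.08 points in Setd1a and 3.52 points in Med24, less than the wild-type SD. In Usp22 it was -7.87 points, more than the SD of 2.35. The WT rescue was below both wild-type libraries in Setd1a (89.2% and 80.8%) and Usp22 (77.7% and 74.4%). In Med24 it was above both (85.3% and 91.8%). In Usp22 the pooled-read intervals of the wild-type libraries, 66.5% to 88.0% and 64.5% to 81.0%, overlapped that of the WT rescue. Of the 19 sites with at least 10 reads in the rescue and both wild-type libraries, 2 were at least 20 points lower, beside 17.0% of all sites, and 0 were at least 20 points higher, beside 8.56%. The 2 sites were 127785016 in Setd1a, at 71.8% against a wild-type mean of 95.3%, and 61168604 in Usp22, at 66.2% against 87.1%. Without wild-type library 2 the number lower was 4. The wild-type libraries were high here by choice, so these counts are descriptions. Site by site it lay below both wild-type libraries at 8 of 20 sites, beside 30.6% of all listed sites, and above both at 5, beside 18.4%. Against the Uhrf1-/- mean, it was higher by 20 points or more at all 17 sites with enough reads, beside 61.0% of all sites. The Uhrf1-/- libraries served to choose the windows as well, so this count is no more than a description.

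**Figure D2:**
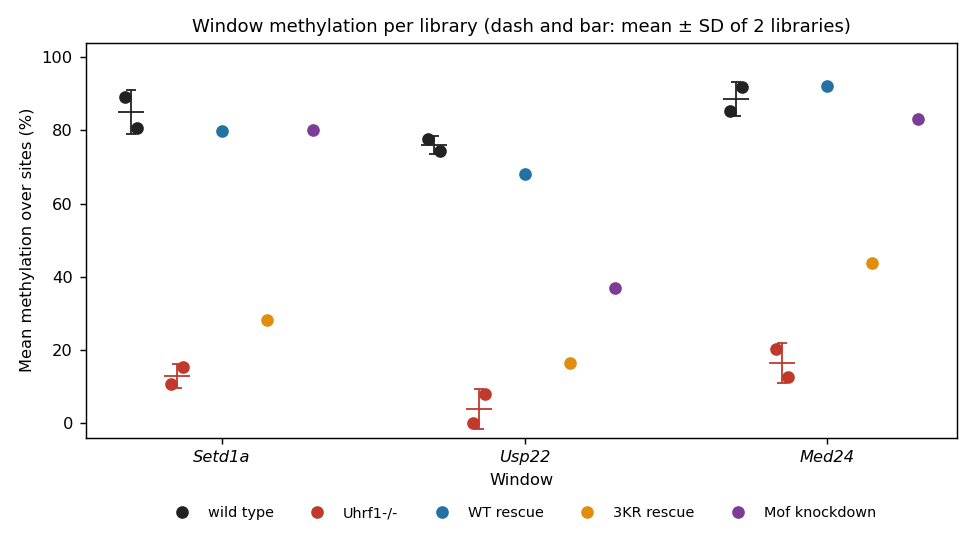
Mean methylation over the sites of each window (vertical axis, percent) per library, by window (horizontal axis); each point is 1 library and the dash and bar give the mean ± SD of the groups with 2 libraries. The 3KR rescue lies above both Uhrf1-/- libraries in each window, and the Mof knockdown lies near wild type in Setd1a (80.2%) and Med24 (83.1%) but at 36.9% in Usp22.

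The comparison of the rescues asks whether UHRF1 with the 3 lysines changed to arginine restores methylation as the wild-type protein does. It uses neither wild-type nor Uhrf1-/- libraries, but the windows were chosen with results on the rescues known. Methylation was lower in the 3KR rescue in all 3 windows, by similar amounts. The 3KR rescue measured 28.3% in Setd1a (94 of 337 pooled reads, Wilson 95% interval 23.4% to 32.9%), 16.5% in Usp22 (21 of 117, 12% to 25.9%) and 43.7% in Med24 (109 of 250, 37.6% to 49.8%). The differences from the WT rescue were -51.6 points in Setd1a, -51.6 in Usp22 and -48.4 in Med24. With a two-sided Fisher's exact test at each site (Benjamini-Hochberg adjusted over all 11900 sites with at least 10 reads in both libraries) and a difference of at least 20 points, 19 of 20 sites fell and 0 rose, beside 45.9% and 0.244% of all sites tested. The median difference was -52.0 points over the 20 sites and -27.9 points over all sites tested. Neither the share nor the median over all sites is matched for methylation or depth in the WT rescue. Depth there was 60 to 119 reads per site in Setd1a, beside a median of 22 over all listed sites. Because rescue results were known at the choice, the count of 19 describes these sites and is not independent support.

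By size alone, all 20 sites passed 20 points, beside 57.0% of all sites. Many sites of the table had little methylation in the WT rescue. Among those at least 50% methylated there, the share was 91.6%, which is near that of the windows.

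All 9 Setd1a sites fell, by between -61.1 points at 127785031 (79.7% to 18.6%, Fisher's exact test, adjusted p = 9.52e-11) and -32.2 points at 127785057 (93.2% to 61.0%, adjusted p = 3.21e-05). All 4 Usp22 sites fell. The difference was largest of all 20 sites at 61168587, -82.1 points (Fisher's exact test, adjusted p = 7.67e-15), and smallest in the window at 61168604, -30.9 points (adjusted p = 0.0135), only 17 bases away. In Med24, 6 of 7 sites fell, with -77.8 points at 98708810 (100% to 22.2%, Fisher's exact test, adjusted p = 9.90e-13) and -30.1 points at 98708772 (95.8% to 65.7%, adjusted p = 0.0019). The site that did not pass, 98708730, measured 70.8% and 44.4% (Fisher's exact test, adjusted p = 0.0509). The test compares 2 libraries, not conditions: with the spread of the replicated groups, edgeR's quasi-likelihood test called 0 of the 20 sites (5 were lower at an unadjusted p under 0.05) and 1 of 11900 in the table. With all read numbers halved, Fisher's exact test called 16 of the 20 sites, 2 of 4 in Usp22.

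The 3KR rescue lay above the Uhrf1-/- mean by 15.3 points in Setd1a, 12.6 in Usp22 and 27.1 in Med24. As a share of the gain in the WT rescue these are 22.9%, 19.6% and 35.9%. The difference in share between the windows was not tested, and Med24 was already known from earlier results for its level in the 3KR rescue. The 3KR rescue was above both Uhrf1-/- libraries at 17 of 20 sites (8 of 9 in Setd1a, 3 of 4 in Usp22 and 6 of 7 in Med24), beside 32.4% of all listed sites. It was below both at 0 sites, beside 8.90%. The 3 exceptions were 127785102 in Setd1a, 61168587 in Usp22, where all 3 libraries were at 0%, and 98708810 in Med24, where the 3KR rescue equaled Uhrf1-/- library 2 at 22.2%. The difference from the Uhrf1-/- mean reached 20 points at 8 of 17 sites, beside 15.8% of all sites, with 4 of 7 in Med24, 3 of 7 in Setd1a and 1 of 3 in Usp22. The Uhrf1-/- libraries were low here by choice, so these counts support nothing further.

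The Mof knockdown concerns cells that keep their own Uhrf1. The labels do not say how much MOF remained. The knockdown library lay below both wild-type libraries in each window, and its difference from the wild-type mean was largest in Usp22. The library measured 80.2% in Setd1a (150 of 189 pooled reads, Wilson 95% interval 73.0% to 84.5%), 36.9% in Usp22 (17 of 43, 26.4% to 54.4%) and 83.1% in Med24 (229 of 275, 78.4% to 87.2%). The differences from the wild-type mean were -4.79 points in Setd1a, within the wild-type SD of 5.99, -39.1 points in Usp22, beyond its SD of 2.35, and -5.44 points in Med24, just beyond its SD of 4.63. The knockdown has 1 library and the wild-type libraries were high by choice, so these differences were not tested.

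Within Usp22 the loss was uneven. The knockdown was at 33.3%, 16.7% and 14.3% at 61168587, 61168629 and 61168641, against wild-type means of 77.5%, 67.7% and 71.9%. At 61168604 it was at 83.3%, between the wild-type values of 100% and 74.2%. The 4 sites rest on 7 to 12 reads, and at 3 of them both read numbers are even.

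Setd1a held single low sites in the knockdown among others at the wild-type level. At 127785031 it measured 50% against a wild-type mean of 92.8%, and at 127785016 75% against 95.3%. The other 7 Setd1a sites lay between -8.41 and 13.0 points from the wild-type mean, and the 7 Med24 sites between -15.7 and 2.33 points. At 127785016 and 127785031 the WT rescue was also below the wild-type mean, by -23.5 and -13.1 points. The WT rescue was below that mean as well at 127785111, 127785028 and 127785010, by -17.5, -8.55 and -3.71 points. The knockdown differed there by -7.88, -8.41 and 13.0 points. At the remaining Setd1a sites the WT rescue was above the wild-type mean. Both comparisons use the same wild-type libraries.

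The knockdown lay below both wild-type libraries at 9 of 20 sites (4 of 9 in Setd1a, 3 of 4 in Usp22 and 2 of 7 in Med24), beside 33.6% of all listed sites, and above both at 2, beside 11.2%. A loss of 20 points or more was present at 4 of the 19 sites with at least 10 reads, 2 each in Setd1a and Usp22 and 0 in Med24, beside 21.2% of all sites. All 19 were at least 50% methylated in wild type, and among all such sites of the table the share with this loss was 34.9%. No site was at least 20 points higher, beside 4.36% of all sites.

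**Figure D3:**
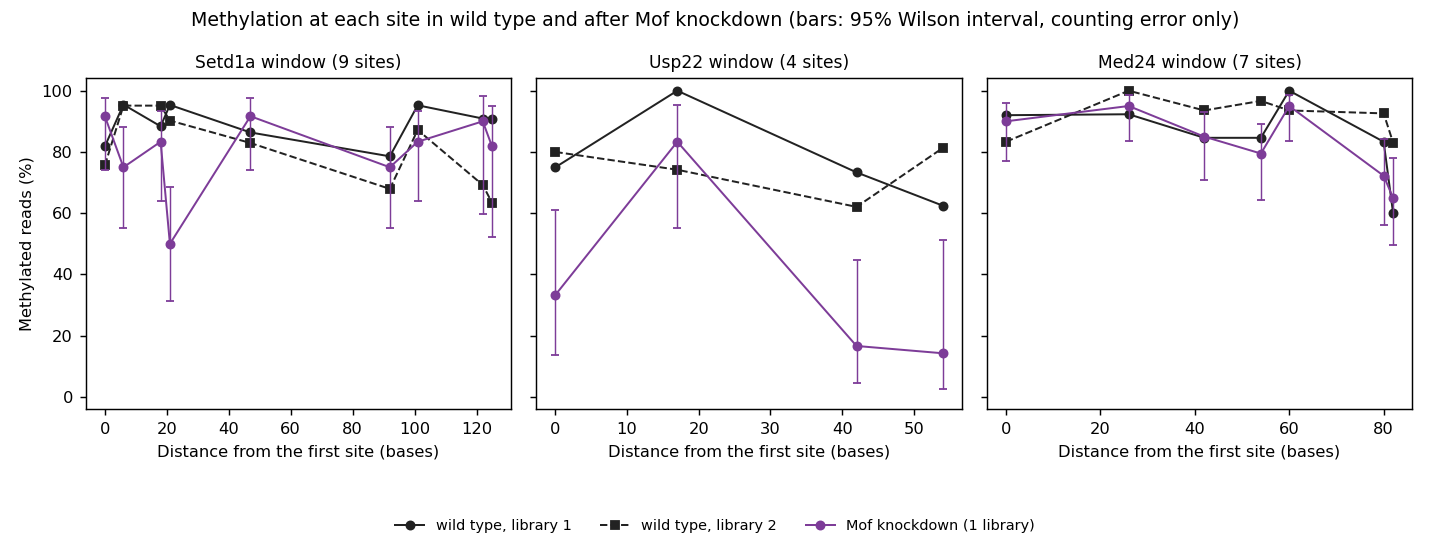
Percentage of methylated reads (vertical axis) against distance in bases from the first site (horizontal axis) in both wild-type libraries and the Mof knockdown library; bars are Wilson 95% intervals on the knockdown reads and cover counting error only. In Usp22 the knockdown lies at 14.3% to 33.3% at 3 sites and at 83.3% at the other, in Setd1a it drops to 50% at 1 site, and in Med24 it stays at 65% or above.

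From these values the order of levels was the same at both ends in Setd1a and Usp22. In Setd1a it ran wild type, Mof knockdown, WT rescue, 3KR rescue, Uhrf1-/-, and the first 3 did not differ beyond the wild-type SD. In Usp22 it ran wild type, WT rescue, Mof knockdown, 3KR rescue, Uhrf1-/-, with each neighboring pair apart by more than the SD of the replicated groups. In Med24 the WT rescue came first and wild type next, within the SD, followed by the Mof knockdown, the 3KR rescue and Uhrf1-/-. An SD from 2 libraries is itself uncertain.

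Other genes of the same complexes were taken from lists of complex subunits, by any listed site in the gene body. In the rescue experiment sites were listed in 7 of 19 SET1/MLL genes, 6 of 24 SAGA genes and 2 of 33 Mediator genes, the 3 genes above included. Among the other SET1/MLL genes 6 of 12 sites with enough reads fell from the WT rescue to the 3KR rescue by Fisher's exact test and at least 20 points, among the other SAGA genes 13 of 21, and at the 1 such Mediator site 0. None rose. By the same test and size, 45.9% of all 11900 sites tested fell and 0.244% rose. The median differences were -25.2 points for the SET1/MLL sites and -35.3 points for the SAGA sites, beside -27.9 points over all sites tested. Whether any of the lists differs from the whole table was not tested, so these counts describe the sites only.

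Kmt2b, a histone methyltransferase of the MLL branch (8 sites), measured 70.6% and 87.5% in wild type, 20.1% and 19.1% without Uhrf1, 79.2% in the WT rescue and 29.1% in the 3KR rescue. Men1, the menin gene, whose protein joins MLL complexes (3 sites), measured 81.5% and 82.8%, 0% and 0%, 100% and 33.3% in the same order. Kmt2a (6 sites) was less methylated, at 34.8% and 27.5% in wild type, 23.3% in the WT rescue and 1.67% in the 3KR rescue. Kmt2d (6 sites) had the opposite order of rescues, 50.4% in the WT rescue and 66.1% in the 3KR rescue, beside 66.7% and 67.8% in wild type and 29.9% and 16.7% in Uhrf1-/-. Its sites had as few as 5 reads, and none of them was called higher. In SAGA, Trrap, a large scaffold subunit (4 sites), measured 82.5% and 78.4% in wild type, 9.38% and 27.3% without Uhrf1, 87.9% in the WT rescue and 24.1% in the 3KR rescue. Tada1 (10 sites) measured 60.1% and Atxn7l1 (6 sites) 53.7% in the WT rescue, against 24.5% and 28.7% in the 3KR rescue. Taf12 (4 sites) was at 0% to 3.12% in every library. Med30 had 1 site, at 13.8% in the WT rescue and 0% in the 3KR rescue.

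**Figure D4:**
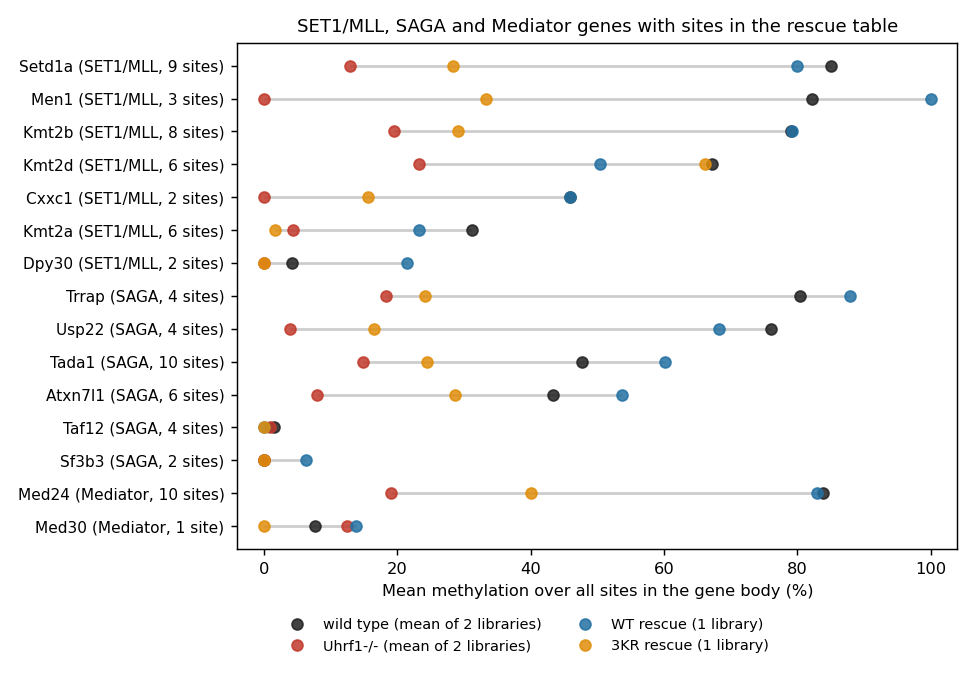
Mean methylation over all listed sites in the gene body (horizontal axis, percent) for each SET1/MLL, SAGA and Mediator gene with a site in the rescue experiment (vertical axis, with the number of sites); points are group means of 2 libraries or single libraries. The 3KR rescue lies left of the WT rescue in every gene except Kmt2d (66.1% against 50.4%) and Taf12 (both at 0%).

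After Mof knockdown, sites of at least 10 reads in the other SET1/MLL genes were at least 20 points lower at 5 of 17 and higher at 1. The numbers were 2 and 1 of 16 in SAGA and 1 and 0 of 6 in Mediator, with a median difference of 0 points in each list. Over all sites tested, 21.2% were lower and 4.36% higher by that size, with a median difference of -2 points. Some listed sites were at 0% in wild type, such as those of Setd1b and Med13l, and could not fall. Kmt2b (6 sites) measured 41.1% in the knockdown against 68.8% and 88.5% in wild type. Kmt2a (4 sites) stood at 4.70% against 2.27% and 3.77%, and Setd1b (13 sites) at 3.08% against 0% in both. Among SAGA genes, Trrap (5 sites) was at 86.5% against 86% and 82.7%, Atxn7l1 (7 sites) at 45.4% against 43.8% and 54.2%, Tada1 (8 sites) at 25.9% against 21.9% and 17.4%, and Taf12 at 0%. Of the SAGA genes named here, Usp22 had the largest difference from wild type. In Mediator, Med30 (4 sites) measured 59.2% against 52.1% and 60.1%, Med26 (2 sites) 84.6% against 100% and 85.6%, and Med13l and Med15 were at 0%, beside 0% to 2.50% in wild type.

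Windows elsewhere in the genome had much the same levels across the 6 libraries of the rescue experiment. Likeness was taken as the mean absolute difference in percentage points over the 6 libraries between clusters of at least 3 sites that lie at most 100 bases apart, of which 2648 others were available. The nearest to Setd1a were clusters in Muc6, a mucin gene (2.24 points), Mtus1 (2.49) and Sf3b2, a splicing factor gene (3.50). Clusters like Usp22 included those in Myo15, a myosin of hair cells (2.93), and Gm9828 (3.03). The Med24 cluster, which takes in 98708676, was nearest to Pdia5, a disulfide isomerase gene (1.59), Gm40904 (3.20) and Gm39273 (4.07). The clusters named were picked as the nearest, so their likeness is by choice. The 3 preset windows lay 9.92 points apart between Setd1a and Usp22, 8.87 between Setd1a and Med24 and 18.1 between Usp22 and Med24. The median over the other clusters was 18.3 points from Setd1a, 17.2 from Usp22 and 24.0 from Med24.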

How the data were processed

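Trim Galore, cutadapt and BSMAP 2.73 with build mm10 are named per the submitters' processing notes. The methylation caller, and how the authors tested for their deposited p-values and q-values, is not given in the sources used here. Per site, the authors deposited, per the file headers, read counts on 1 strand (total, methylated, unmethylated) and the fraction methylated in each library. Percentages here are methylated over total counts. The lowest total at any listed site is 5 reads. The authors' deposited differences and q-values are all against wild type, which served to choose the windows, and are not reported here. No genome sequence over the windows was used here, so the context of each cytosine is not given.

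The genes, windows and lists were chosen with earlier results of these data known. Every listed site in the windows was described; other genes were those of the complex lists with listed sites (at most 4 named per list and table, those with the most sites) and the 3 clusters most like each window, of which 1 is not reported here. Fisher's exact test (scipy 1.17.1) was run on all sites with at least 10 reads in both rescue libraries and called at an adjusted p under 0.05 and 20 points. A check on simulated data drew independent reads at each site, with no spread between libraries. It therefore cannot show how the test behaves with that spread, with linked sites or with reads counted more than once. The alternative with spread used edgeR 4.0.16 in R 4.3.3. Genes were placed by the RefSeq table of GRCm38.p6, the assembly of mm10. Python 3.11.15, numpy 2.4.6, pandas 2.3.3 and matplotlib 3.10.9 were used. Intervals are Wilson 95%, and 3 reads of the total set the limit for a count of 0.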

Additional observations from a re-analysis of the deposited data

How the results depend on the processing

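Of 20 sites, Fisher's exact test called 19 lower in the 3KR rescue with at least 5 reads, 19 of 19 with at least 20 reads and 16 with a threshold of 40 points. With read numbers halved, an alternative chosen after seeing the data, it called 16 (2972 of 11900 in the whole table, beside 5467). A minimum of 20 reads gave 2503 of 4772 in the table. edgeR with the spread of the replicated groups called 0 of the 20, with adjusted p from 0.361 to 0.758. Leaving out each wild-type or Uhrf1-/- library in turn gave 2 to 4 sites at least 20 points lower in the WT rescue than in wild type (4 without wild-type library 2) and 0 to 1 higher (1 without wild-type library 1). It gave 0 to 1 sites higher in the Mof knockdown (1 without wild-type library 1), and 7 to 10 sites higher in the 3KR rescue than in Uhrf1-/-. At 40 points, 0 sites were lower in the WT rescue than in wild type and 2 were higher in the 3KR rescue than in Uhrf1-/-. The causes were not tested. All 30 window levels recomputed from pooled reads or from sites of at least 10 reads moved by less than the SD or the Wilson interval of the main value. For single libraries this was partly fixed in advance, since that interval comes from the same pooled reads. In Med24, and for the knockdown in Setd1a, every site had at least 10 reads, so that alternative repeated the main value. The Mof knockdown in Usp22 moved from 36.9% to 44.4% with the 3 sites of at least 10 reads. No paired analysis was possible because the rescues and the knockdown have 1 library each and Uhrf1-/- against wild type was given with no test. At 10 reads 1 read is worth 10 points, which limits single sites, those of Usp22 most.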
